A study of Mus musculus with 8 samples.

Results

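The 10 genes described here are the transcription factor Atf4, its relatives and stress partners Atf5, Ddit3 and Trib3, and 6 enzymes of amino acid and one-carbon metabolism (Asns, Phgdh, Psat1, Shmt2, Mthfd2 and Aldh1l2). They were taken by symbol and were chosen with earlier results of these data known. All 10 were found in both tables, among 12416 genes shared by the tables and 13838 genes in either. All 10 also passed the filter on low values. The cells were mouse J1 embryonic stem cells of strain 129S4/SvJae, with 2 libraries each of footprints after eIF4A2 shRNA, footprints after control shRNA, total RNA after eIF4A2 shRNA and total RNA after control shRNA. Footprints are the mRNA fragments that ribosomes cover, and eIF4A2 is an RNA helicase of translation initiation. All groups were infected with shRNA vectors, selected with 1 μg/mL puromycin for 3 days, taken on day 4.5, and cycloheximide (0.1 mg/mL, 1 min) held ribosomes on the mRNA before lysis. The knockdown group received shRNAs called sheIF4A2-2 and sheIF4A2-3 and the control group shRNAs called shNT and shGFP, but which library holds which shRNA cannot be read from the labels. Cells of all groups grew without feeders, with leukemia inhibitory factor (LIF). Their medium held 15% serum, 2 mM glutamine and 100 μM nonessential amino acids, a supplement that includes asparagine, serine and glycine.

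As background, cells that run short of amino acids or meet other stress phosphorylate the initiation factor eIF2, which lowers translation in general. Atf4 mRNA carries short upstream reading frames that hold back its own translation until eIF2 is phosphorylated, and Atf5 and Ddit3 are controlled in a similar way. ATF4 protein then binds the promoters of genes for amino acid synthesis and uptake, one-carbon enzymes and stress regulators, among them Asns and Trib3. The comparisons below ask how these genes stood after eIF4A2 knockdown in ribosome-bound mRNA, in total RNA and in the footprint-to-RNA ratio.

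The sequence shown is the amino acid response element, TGATGNAAN, to which ATF4 binds with a partner, because Asns, with the lowest adjusted p of the 10 genes in footprints, and Trib3, close to its control level, both carry a match. Promoter windows of 250 bases before to 50 bases after the start were found in the RefSeq table (build GRCm38.p6) for 9 of the 10 genes, in 11 windows. Both strands were searched. There were 2 windows with a match, in Asns and in Trib3, and 3.95% of all 32851 windows had one. The other 7 genes with a window had no match in it, and Aldh1l2 had no window. In the Asns window the match TGATGAAAC lies on the gene's strand, from 23 to 15 bases before the start. In the Trib3 window the match lies after the start, at bases 14 to 22, and reads TGATGTAAA on the opposite strand. The stretch of Asns is chr6:7693210-7693269 and that of Trib3 is chr2:152344031-152344055, both on the minus strand. Capitals mark the match, and both are written 5′ to 3′ along the gene.
Asns: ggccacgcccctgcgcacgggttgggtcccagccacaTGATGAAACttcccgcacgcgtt
Trib3: agctcaggTTTACATCAgccgggcg

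Values are given on the CPM scale (reads per gene scaled to a common library size), and differences as log2 fold changes of log2(CPM + 1), knockdown over control, with limma's standard error (SE) and p-values adjusted by Benjamini-Hochberg over all genes tested. A gene was called at an adjusted p below 0.05. Footprint depth was between 7947827 and 10682677 reads and total RNA depth between 8564582 and 12840349 reads per library, read back from the deposited values. The highest footprint depth is that of control 2, whose value per read lies too near 0.1 to be told from rounding, so its depth and read numbers hold only if that value is 1 read. Eif4a2, the targeted gene, had footprints of 311 and 153 CPM in the knockdown and 395 and 409 CPM in the control. Its total RNA was 583 and 617 CPM in the knockdown and 739 and 969 CPM in the control. Among genes at 10 CPM or more, the SD of the log2 difference within a pair of replicates was 0.135 for total RNA of the knockdown and 0.45 for total RNA of the control, and for footprints it was 0.423 for the knockdown and 0.372 for the control. All 8 stem cell markers (Pou5f1, Nanog, Sox2, Zfp42, Esrrb, Klf4, Dppa5a and Tdgf1) were measured. Their summed footprints were 4206 to 4309 CPM in the knockdown and 6256 to 6592 CPM in the control. Their summed total RNA was 4331 to 4392 CPM in the knockdown and 5784 to 6803 CPM in the control. Zfp42 alone had means of 890 and 2164 CPM in footprints and 772 and 1686 CPM in total RNA, knockdown and then control. In footprints 6 of the 8 lay below control without overlap (22.5% of all genes), and Pou5f1 and Klf4 overlapped. In total RNA 7 did (24.6% of all genes), and Dppa5a overlapped. Of 8 fibroblast markers 4 were measured, with sums of 11.1 to 25.5 CPM over all libraries, and Col3a1, Dcn, Lum and Postn were not in the tables used here. In these bulk samples fewer cells of a type and less RNA per cell cannot be told apart, and the part of the lower stem cell markers in the results below was not tested.

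Asns stood at 47.7% of control in footprints and 45.3% in total RNA, and Aldh1l2 at 21.2% and 37.0%, while Atf4 and Trib3 overlapped with control in both assays. The other enzymes lay between 67.8% and 89.8% of control. limma called 0 of the 10 genes in either assay or in the change of the footprint-to-RNA ratio, where it also called 0% of all genes tested (12723 in footprints, 13436 in total RNA and 12358 for the ratio). Because the 10 genes were chosen with earlier results of these data known, their counts beside all genes are a description and not a test. At an unadjusted p below 0.05, 2 of the 10 genes were lower in footprints, where 6.74% of all genes were, and 7 of the 10 were lower in total RNA, where 8.08% of all genes were. None was higher at that level, as 6.12% of all genes were in footprints and 6.82% in total RNA. For the ratio 0 of the 10 had an unadjusted p below 0.05, beside 1.55% of all genes (0.599% lower and 0.955% higher). In total RNA edgeR's quasi-likelihood test called 0 of the 10 as well, and 0 of all 13436 genes. DESeq2 called 1 (Asns), beside 272 of all genes. edgeR's likelihood ratio test called Aldh1l2, Psat1, Asns and Atf5, beside 824 of all genes. limma with a replicate block called Asns and Aldh1l2, beside 636 of all genes. Without total RNA control 1 limma called 6191 genes, among them all the members but Ddit3 and Trib3, with Atf4 at -0.49, and without total RNA control 2 it called 3411 genes, among them the same members other than Atf4. In those fits the remaining control library is assumed to vary as little as the knockdown pair. In both knockdown libraries 5 of the 10 genes had fewer footprints than in both control libraries (22.5% of all genes), and 1 had more (22.3% of all genes). In total RNA 7 of the 10 were below control without overlap (24.6% of all genes) and 0 were above (23.3% of all genes). Asns, Aldh1l2, Psat1, Shmt2 and Mthfd2 were below control without overlap in both assays, and 12.4% of all genes were. The log2 fold change was below 0 for 8 of the 10 genes in each assay, beside 49.4% of all genes in footprints and 50.3% in total RNA. The median over the 10 genes was -0.16 in footprints and -0.38 in total RNA, beside 0.01 and -0.0024 over all genes tested. With 2 libraries against 2 there are 6 ways to split 4 libraries, and an exact two-sided permutation test of a single gene cannot go below 0.333, so p-values come from a model that shares the spread between genes.

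**Figure D1:**
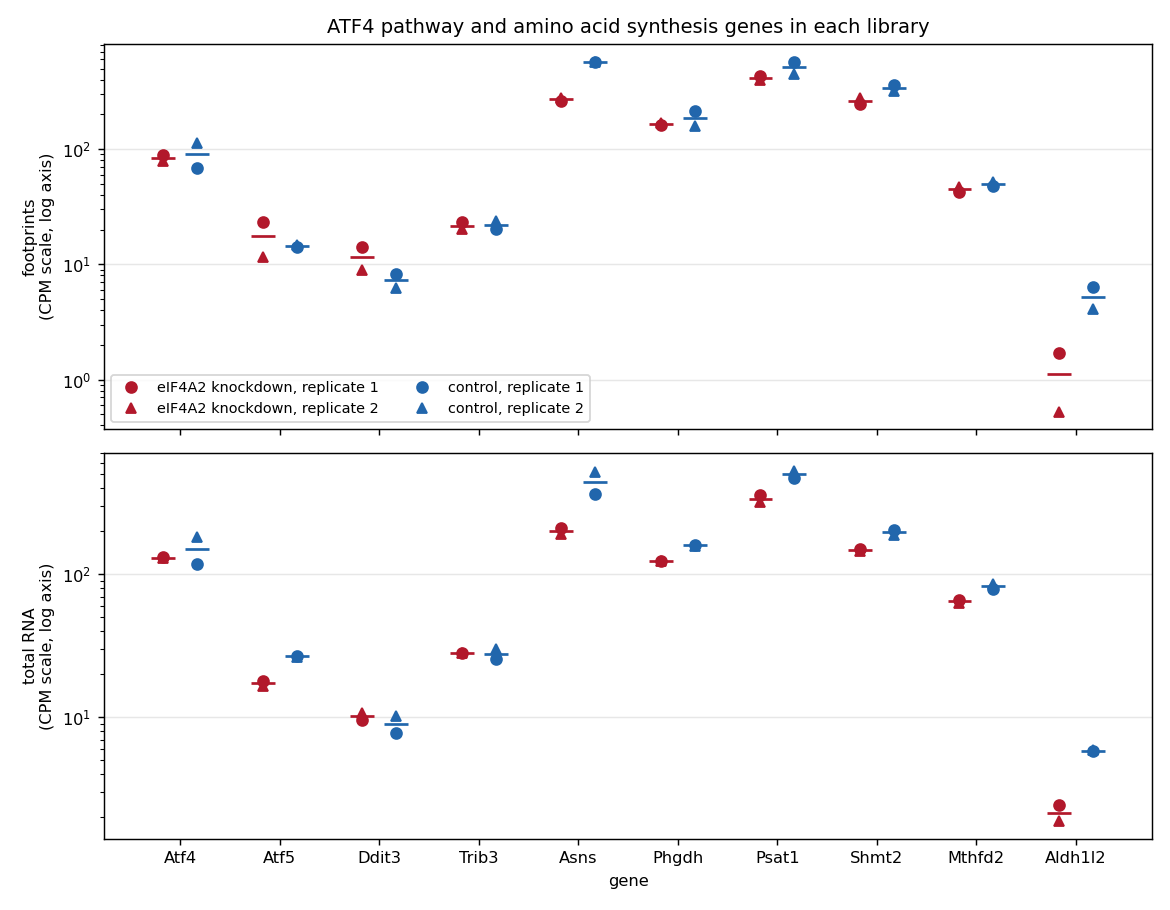
Footprints (top) and total RNA (bottom) of the 10 genes in each library, on the CPM scale with a log axis; red marks are the eIF4A2 knockdown and blue marks the control, circles replicate 1, triangles replicate 2, and bars the mean of 2 libraries. Asns and Aldh1l2 lie well below control in both assays, with 271 against 567 CPM and 1.11 against 5.22 CPM in footprints, while Atf4 and Trib3 overlap with control.

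Among the regulators, Atf4 itself showed no separation between the groups. Its footprints were 88.4 and 79.0 CPM in the knockdown and 68.9 and 113.7 CPM in the control. Its total RNA was 131 and 129.9 CPM in the knockdown and 118 and 183 CPM in the control. Both knockdown libraries lay between the control libraries in each assay, and control 2 was the highest in each. The log2 fold change of Atf4 was -0.08 ± 0.23 (SE) in footprints (limma adjusted p = 0.914) and -0.17 ± 0.22 in total RNA (limma adjusted p = 0.763). Its 95% interval in footprints ran from -0.62 to 0.45, so that a change of moderate size in either direction is within it. Without footprint control 2 the value was 0.27, and without total RNA control 2 it was 0.14, both of the opposite sign.

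Trib3, a pseudokinase that ATF4 induces and that holds ATF4 activity back, also lay at the control level. Trib3 footprints were 23.2 and 20.2 CPM in the knockdown and 20.3 and 23.6 CPM in the control. Trib3 total RNA was 28.0 and 28.4 CPM in the knockdown and 25.6 and 30.1 CPM in the control. The groups overlapped in both assays, with log2 fold changes of -0.02 ± 0.21 in footprints, which turned positive (0.01) with median-of-ratios scaling, and 0.02 ± 0.16 in total RNA (limma adjusted p = 0.982 and 0.961).

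Ddit3 (CHOP), the stress factor that ATF4 induces and that promotes cell death in prolonged stress, was the member with more footprints in both knockdown libraries. Its footprints were 14.2 and 8.89 CPM in the knockdown, from 126 and 85 reads, and 8.28 and 6.24 CPM in the control, from 78 reads and, if the value per read of control 2 holds, 63 reads. The lower knockdown library was close to the higher control library. The log2 fold change was 0.58 ± 0.30 (limma adjusted p = 0.454). Ddit3 total RNA was 9.63 and 10.8 CPM in the knockdown and 7.77 and 10.2 CPM in the control, which overlap, at 0.18 ± 0.20 (limma adjusted p = 0.727). In the RefSeq table Ddit3 overlaps Mbd6 and Mars1, so the split of reads among these genes is uncertain.

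Atf5, a relative of Atf4 with the same kind of upstream reading frames, lay below control in total RNA without overlap and on either side of it in footprints. Atf5 total RNA was 17.9 and 16.6 CPM in the knockdown and 27.1 and 26.5 CPM in the control. Both knockdown libraries lay below both control libraries, at 64.4% of the control mean, with a log2 fold change of -0.61 ± 0.15 (limma adjusted p = 0.168). Atf5 footprints were 23.4 and 11.5 CPM in the knockdown and 14.2 and 14.7 CPM in the control. Knockdown 1 lay above both control libraries and knockdown 2 below them, so that the log2 fold change of 0.18 ± 0.31 (limma adjusted p = 0.853) was -0.30 without knockdown 1 and 0.66 without knockdown 2. Between 110 and 208 footprint reads stood behind the knockdown values. In the RefSeq table Atf5 overlaps Nup62 and Il4i1b, and reads may be split among them.

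Asparagine synthetase (Asns), which makes asparagine from aspartate and glutamine, had the lowest p of the 10 genes in each assay. Asns footprints were 261 and 280.5 CPM in the knockdown and 567 and 568 CPM in the control. Replicates of each group lay close together, and the knockdown mean was 47.7% of the control mean. Asns total RNA was 212 and 190.2 CPM in the knockdown and 367 and 521 CPM in the control, 45.3% of the control mean, with no overlap but with the control libraries apart. The log2 fold change was -1.06 ± 0.16 in footprints (limma adjusted p = 0.0703, rank 17 by p among 12723 genes) and -1.12 ± 0.20 in total RNA (limma adjusted p = 0.114, rank 154 among 13436 genes). The 95% interval was -1.43 to -0.70 in footprints and -1.61 to -0.63 in total RNA.

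The sign of the Asns value was negative in all 18 alternative fits of footprints and all 21 of total RNA, while its adjusted p ran from 0.0202 to 0.523 and from 7.3e-09 to 0.467. The highest came without footprint control 2 and without total RNA knockdown 2. Within footprints alone, leaving out knockdown 2 took Asns past the threshold (0.0397), and within total RNA leaving out control 1 (7.3e-09) or control 2 (3.16e-06) did. With all 8 libraries in 1 limma fit Asns was called in footprints (adjusted p = 0.0423) and in total RNA (0.0254). In that fit the footprint call was lost without footprint knockdown 1 (0.0868), knockdown 2 (0.0753), control 1 (0.186) or control 2 (0.283), and without total RNA knockdown 1 (0.0864) or knockdown 2 (0.0861). The total RNA call was lost there without footprint control 1 (0.0846) or control 2 (0.0854) and without total RNA knockdown 1 (0.194), knockdown 2 (0.361) or control 2 (0.0829). In the authors' deposited table Asns had a log2 fold change of -1.07 with an FDR of 0.0044 in footprints and -1.14 with an FDR of 7.52e-05 in total RNA.

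The serine branch makes serine from a glycolysis intermediate, and its members stood nearer to control than Asns. Phosphoserine aminotransferase (Psat1), the middle enzyme, had total RNA of 358 and 319.5 CPM in the knockdown and 471 and 529 CPM in the control. Its groups did not overlap, at 67.8% of control and a log2 fold change of -0.56 ± 0.15 (limma adjusted p = 0.182). Psat1 footprints were 432 and 399.8 CPM in the knockdown and 576 and 452 CPM in the control, again without overlap, at -0.30 ± 0.18 (limma adjusted p = 0.537). Phosphoglycerate dehydrogenase (Phgdh), the first enzyme, had total RNA of 125 and 124 CPM in the knockdown and 161 and 157 CPM in the control. Replicates were close in each group, at 78.0% of control and -0.36 ± 0.13 (limma adjusted p = 0.284). Phgdh footprints were 161 and 168 CPM in the knockdown and 214 and 159 CPM in the control, where control 2 lay below both knockdown libraries (-0.17 ± 0.18, limma adjusted p = 0.747, and 0.04 without footprint control 1). The RefSeq table lists a Phgdh pseudogene, so some of these reads may have more than 1 source.

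Mitochondrial one-carbon enzymes pass the carbon of serine on to folate. Serine hydroxymethyltransferase 2 (Shmt2), which splits serine into glycine and a one-carbon unit, had total RNA of 149.6 and 146 CPM in the knockdown and 204 and 189 CPM in the control. Its footprints were 246 and 278 CPM in the knockdown and 357 and 316 CPM in the control. Neither assay had overlap, and the size was alike, at 75.3% of control in total RNA (-0.41 ± 0.13, limma adjusted p = 0.243) and 77.7% in footprints (-0.36 ± 0.17, limma adjusted p = 0.407). Mthfd2, the mitochondrial methylene-tetrahydrofolate dehydrogenase and cyclohydrolase of dividing cells, had total RNA of 66.5 and 63.5 CPM in the knockdown and 79.5 and 85.6 CPM in the control (-0.34 ± 0.13, limma adjusted p = 0.319). Mthfd2 footprints were 42.8 and 46.6 CPM in the knockdown and 47.8 and 51.6 CPM in the control, a gap smaller than the range within either group (-0.15 ± 0.17, limma adjusted p = 0.754). Shmt2 overlaps Ndufa4l2 in the RefSeq table.

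Aldh1l2, the mitochondrial formyl-tetrahydrofolate dehydrogenase that burns one-carbon units and makes NADPH, had the lowest share of control of the 10 genes in each assay, from the fewest reads. Aldh1l2 footprints were 1.69 and 0.523 CPM in the knockdown, which is 15 and 5 reads, and 6.37 and 4.06 CPM in the control, which is 60 reads and, if the value per read of control 2 holds, 41 reads. Aldh1l2 total RNA was 2.45 and 1.88 CPM in the knockdown, from 31 and 25 reads, and 5.82 and 5.88 CPM in the control, from 51 and 53 reads. Neither assay had overlap, and the knockdown means were 21.2% and 37.0% of the control means. On the log2(CPM + 1) scale, which shrinks changes of genes with so few reads, the log2 fold change was -1.59 ± 0.39 in footprints (limma adjusted p = 0.17) and -1.12 ± 0.20 in total RNA (limma adjusted p = 0.114). The authors' deposited table gave -2.24 with an FDR of 0.024 in footprints and -1.43 with an FDR of 0.00158 in total RNA. That table listed 2 of the 10 genes as lower at an FDR below 0.05 in each assay, Asns and Aldh1l2, beside 0.889% of all its genes in footprints and 3.19% in total RNA. It listed none of the 10 as higher, beside 0.788% and 2.21% of all genes. In the RefSeq table a long noncoding RNA overlaps Aldh1l2.

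**Figure D2:**
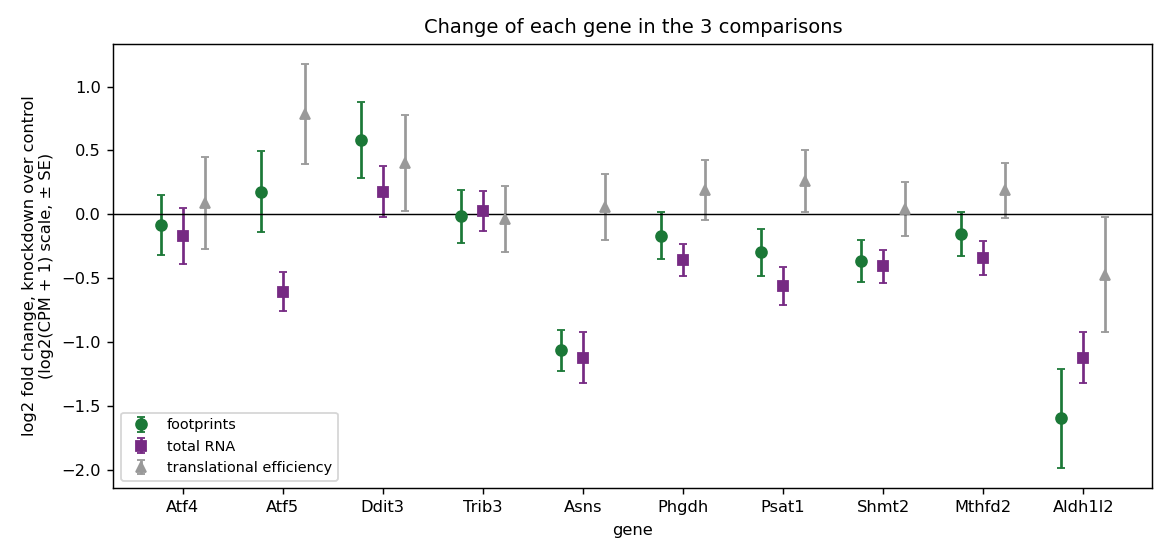
Log2 fold change of each of the 10 genes, knockdown over control, on the log2(CPM + 1) scale, with bars of ± 1 SE, for footprints (green circles), total RNA (purple squares) and the change of the footprint-to-RNA ratio (grey triangles). Asns and Aldh1l2 lie at or below -1.06 in footprints and total RNA, Atf5 is split between the assays at 0.18 and -0.61, and no grey triangle was called.

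In control cells the members with more footprints than total RNA on this scale were 4 enzymes, Shmt2, Asns, Phgdh and Psat1. The ratio divides mean footprints by mean total RNA of a gene and is a description, because the tables were scaled apart and the labels do not say which regions of a gene were counted for each. Footprints on the upstream reading frames of Atf4, Atf5 and Ddit3 may therefore be among those counted. For these genes the ratio cannot be read as translation of the protein alone. Over 12358 genes the median ratio was 0.799 in the knockdown and 0.793 in the control. The 75th percentile in the control was 1.11, so a ratio above 1 is common among all genes. In control cells Atf4 stood at 0.606 (percentile 30.7 among all genes), Atf5 at 0.54 (percentile 24.1), Trib3 at 0.789 (percentile 49.5) and Ddit3 at 0.809 (percentile 51.5). Shmt2 stood at 1.71 (percentile 94.2), Asns at 1.28 (percentile 83.3), Phgdh at 1.17 (percentile 78.6) and Psat1 at 1.03 (percentile 69.8). Psat1 had 1.22 and 0.854 when same-numbered control libraries are divided, on either side of 1. Of the other enzymes Aldh1l2 stood at 0.892 and Mthfd2 at 0.602, beside Atf4. When same-numbered control libraries are divided, Shmt2 had 1.75 and 1.68, above the 1.54 and 1.09 of Asns, its nearest neighbour. Asns, Phgdh, Psat1, Aldh1l2 and Ddit3 each overlapped with the next gene in the order, Trib3 lay above Atf4 without overlap, Atf4 overlapped with Mthfd2, and Atf5 lay below both.

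In the knockdown 8 of the 10 genes had a higher ratio of means than in the control, and limma's interaction test called 0 of them (0% of all genes). The log2 change of the ratio was below 0 for 2 of the 10, Trib3 and Aldh1l2, beside 50.8% of all genes. The largest difference was that of Atf5, with ratios of 1.31 and 0.693 in the knockdown, against 0.526 and 0.553 in the control, when same-numbered libraries are divided. Both knockdown ratios lay above both control ratios, the first far above. Whether these footprints lay on the upstream reading frames of Atf5 or on its main one cannot be told from these values. The change in translational efficiency of Atf5 was 0.78 ± 0.39 (unadjusted p = 0.0727, limma adjusted p = 1.00), and it was 0.30 without footprint knockdown 1 and 1.27 without footprint knockdown 2. Mthfd2 was the other member with both ratios above control, at 0.643 and 0.733 in the knockdown, against 0.601 and 0.603 in the control (0.19 ± 0.21), and 13.7% of all genes had such a pattern. Aldh1l2 was the 1 member with both below, at 0.69 and 0.278 in the knockdown, against 1.09 and 0.691 in the control (-0.47 ± 0.45), as were 12.6% of all genes. Atf4 had ratios of 0.674 and 0.608 in the knockdown, against 0.583 and 0.621 in the control, which overlap (0.09 ± 0.36, 95% interval -0.71 to 0.89). For Asns the change of the ratio was 0.06 ± 0.26, with an interval from -0.52 to 0.63, which includes 0. Ddit3 had ratios of 1.47 and 0.822 in the knockdown, against 1.07 and 0.612 in the control, which overlap (0.40 ± 0.38). For Psat1, Phgdh, Shmt2 and Trib3 the changes were 0.26 ± 0.24, 0.19 ± 0.23, 0.04 ± 0.21 and -0.04 ± 0.26.

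**Figure D3:**
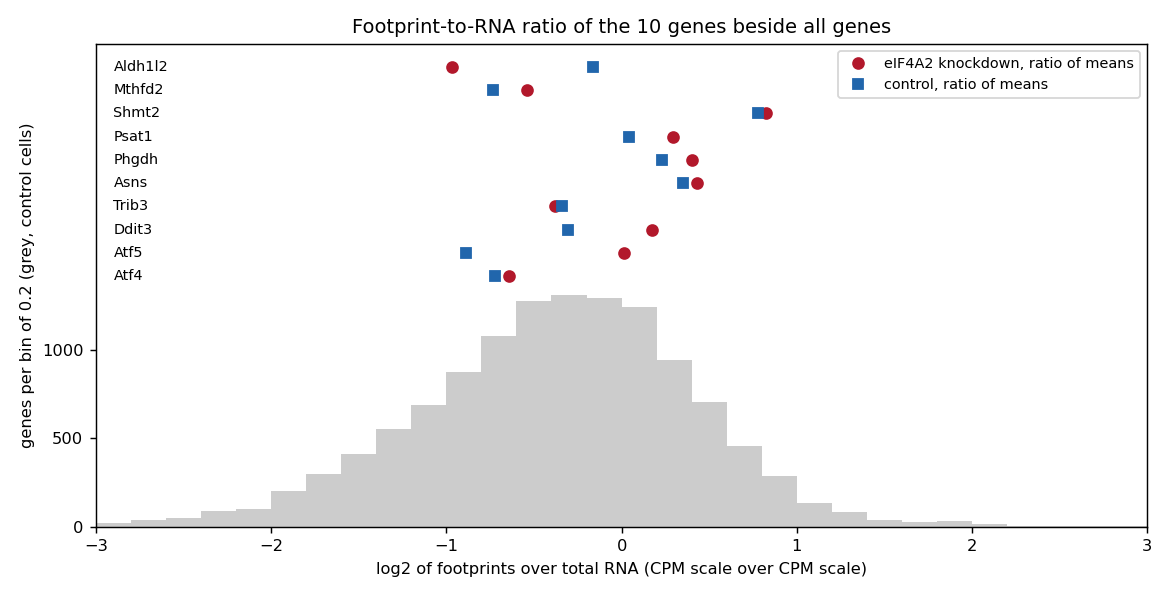
Footprint-to-RNA ratio (log2 axis) of the 10 genes in the knockdown (red circles) and the control (blue squares), above a histogram of all 12358 genes in control cells (grey, genes per bin). Shmt2 lies at the right of the distribution at 1.77 in the knockdown and 1.71 in the control, and the largest gap between the marks is that of Atf5, at 1.01 and 0.54.

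The wider pathway was examined in 6 further lists, which were written with earlier results of these data known. limma called 0 genes of these lists in any comparison, as it called 0% of all genes. Enzymes of other amino acid pathways had the most members at an unadjusted p below 0.05. Of the 18 such enzymes 11 were negative in footprints (median -0.19) and 12 in total RNA (median -0.21). At an unadjusted p below 0.05, 5 were lower and 1 higher in footprints, and 6 were lower and 1 higher in total RNA, where 6.74% and 8.08% of all genes were lower. Cth, which makes cysteine from cystathionine, had footprints of 45.1 and 54.0 CPM in the knockdown and 89.2 and 86.8 CPM in the control (-0.82 ± 0.17, limma adjusted p = 0.125). Cth total RNA was 35.0 and 34.3 CPM in the knockdown and 61.7 and 94.3 CPM in the control (-1.11 ± 0.22, limma adjusted p = 0.122). Neither assay had overlap for Cth. The arginine synthesis enzyme Ass1 had -0.68 ± 0.16 in footprints and -0.52 ± 0.14 in total RNA. Bcat1, a transaminase of branched-chain amino acids, had -0.55 ± 0.16 and -0.49 ± 0.15. Of the proline enzymes, Pycr1 had -0.71 ± 0.20 in footprints and -0.48 ± 0.22 in total RNA, and Aldh18a1 had -0.48 ± 0.17 and -0.35 ± 0.13.

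Of 18 other serine, glycine and one-carbon enzymes 13 were negative in footprints (median -0.13) and 11 in total RNA (median -0.02), with 2 lower at an unadjusted p below 0.05 in each assay, 1 higher in footprints and 2 higher in total RNA. Over all genes 6.74% were lower and 6.12% higher in footprints, and 8.08% were lower and 6.82% higher in total RNA. Psph, which completes the serine branch after Phgdh and Psat1, had footprints of 48.5 and 55.9 CPM in the knockdown and 97.4 and 83.3 CPM in the control. Its groups did not overlap, at -0.78 ± 0.17 (limma adjusted p = 0.141), with -0.54 ± 0.18 in total RNA. Gldc, the glycine decarboxylase, had -0.39 ± 0.16 in footprints and -0.39 ± 0.13 in total RNA. The mitochondrial formate enzyme Mthfd1l had -0.35 ± 0.17 and -0.32 ± 0.14. Mthfd2l, a paralog of Mthfd2 with few reads, had 0.48 ± 0.33 in footprints and 0.65 ± 0.21 in total RNA. The 3 enzymes of the serine branch all had negative values in both assays, where 49.4% (footprints) and 50.3% (total RNA) of all genes were negative. Phgdh footprints overlapped with control, and their value changed sign without footprint control 1.

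Other stress targets of ATF4 were mixed. Of 12 measured, 8 were negative in each assay, with medians of -0.14 (footprints) and -0.10 (total RNA). In each assay 1 was lower and 1 higher at an unadjusted p below 0.05, which is near the share over all genes (6.74% lower and 6.12% higher in footprints, 8.08% lower and 6.82% higher in total RNA). Ddit4, an inhibitor of mTORC1, had footprints of 81.8 and 75.4 CPM in the knockdown and 52.6 and 39.0 CPM in the control (0.78 ± 0.19, limma adjusted p = 0.177), with 0.59 ± 0.25 in total RNA. Chac1, which breaks down glutathione, had total RNA of 10.3 and 10.5 CPM in the knockdown and 6.62 and 5.77 CPM in the control (0.67 ± 0.18), with 0.28 ± 0.26 in footprints. Below control were Eif4ebp1, which binds the cap-binding factor eIF4E (-0.71 ± 0.18 in footprints, -0.31 ± 0.13 in total RNA), and the secreted stress factor Gdf15 (-0.65 ± 0.33 and -0.80 ± 0.19). The cell cycle inhibitor Cdkn1a, a p53 target as well, had 0.46 ± 0.23 and 0.73 ± 0.35. Stress targets thus stood on both sides of control.

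Signalling and feedback genes of the eIF2 pathway that controls Atf4 had medians near 0. Of 13 such genes 7 were negative in footprints and 8 in total RNA, with medians of -0.02 and -0.08. Eif2ak2 (PKR), the eIF2 kinase that senses double-stranded RNA, was the 1 gene of 13 with an unadjusted p below 0.05 in each assay (12.9% of all genes in footprints and 14.9% in total RNA, in either direction), at -0.66 ± 0.25 in footprints and -0.41 ± 0.14 in total RNA. The others with the smallest p were Gcn1l1, an activator of the amino acid sensor GCN2 (0.29 ± 0.18 in footprints, 0.24 ± 0.18 in total RNA), the eIF2 subunit Eif2s1 (-0.28 ± 0.19 and -0.18 ± 0.22), the exchange factor subunit Eif2b4 (0.08 ± 0.18 and -0.25 ± 0.16) and the eIF2 phosphatase subunits Ppp1r15a (0.28 ± 0.27 and -0.17 ± 0.20) and Ppp1r15b (0.24 ± 0.21 and 0.01 ± 0.13).

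Of 9 measured transcription factors that work with ATF4 or beside it, 4 were negative in footprints (median 0.08) and 6 in total RNA (median -0.27). At an unadjusted p below 0.05, 2 were higher and 1 lower in footprints, and 0 were higher and 1 lower in total RNA. The shares over all genes were 6.12% higher and 6.74% lower in footprints, and 6.82% higher and 8.08% lower in total RNA. Nupr1, a stress regulator, had footprints of 11.9 and 6.70 CPM in the knockdown and 21.6 and 23.9 CPM in the control (-1.25 ± 0.28, limma adjusted p = 0.142), with -0.75 ± 0.26 in total RNA. Its groups did not overlap in either assay. Cebpb and Cebpg, which pair with ATF4 on DNA, were above control in footprints, at 0.82 ± 0.31 and 0.86 ± 0.38 (limma adjusted p = 0.324 and 0.388). In total RNA they had 0.19 ± 0.19 and 0.19 ± 0.16. Cebpg rested largely on knockdown 1, with 14.7 and 6.49 CPM in the knockdown and 4.14 and 5.95 CPM in the control. Nfe2l2 had -0.43 ± 0.24 and -0.31 ± 0.14, Atf6 had -0.21 ± 0.23 and -0.22 ± 0.14, and Xbp1 had 0.09 ± 0.21 and -0.30 ± 0.14, each in footprints and then in total RNA.

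Amino acid transporters stood on both sides of control, with medians near 0. Of 13 measured, 6 were negative in footprints (median 0.02) and 4 in total RNA (median 0.08), and 2 were higher in total RNA at an unadjusted p below 0.05, the large neutral amino acid transporter Slc43a1 (0.68 ± 0.18) and Slc7a6 (0.45 ± 0.14), a carrier of cationic and neutral amino acids. Over all genes 6.82% were higher in total RNA at that level. In footprints Slc43a1 and Slc7a6 had 0.49 ± 0.29 and 0.47 ± 0.25. The arginine transporter Slc7a3 had -0.09 ± 0.18 in footprints and -0.31 ± 0.17 in total RNA. The glutamine carriers Slc1a5 (-0.26 ± 0.16 and 0.00 ± 0.24), Slc38a1 (-0.03 ± 0.17 and 0.34 ± 0.18) and Slc38a7 (-0.28 ± 0.19 and -0.01 ± 0.17) were on 1 side of control without overlap in at most 1 assay. The cystine transporter Slc7a11 was not in the tables used here.

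**Figure D4:**
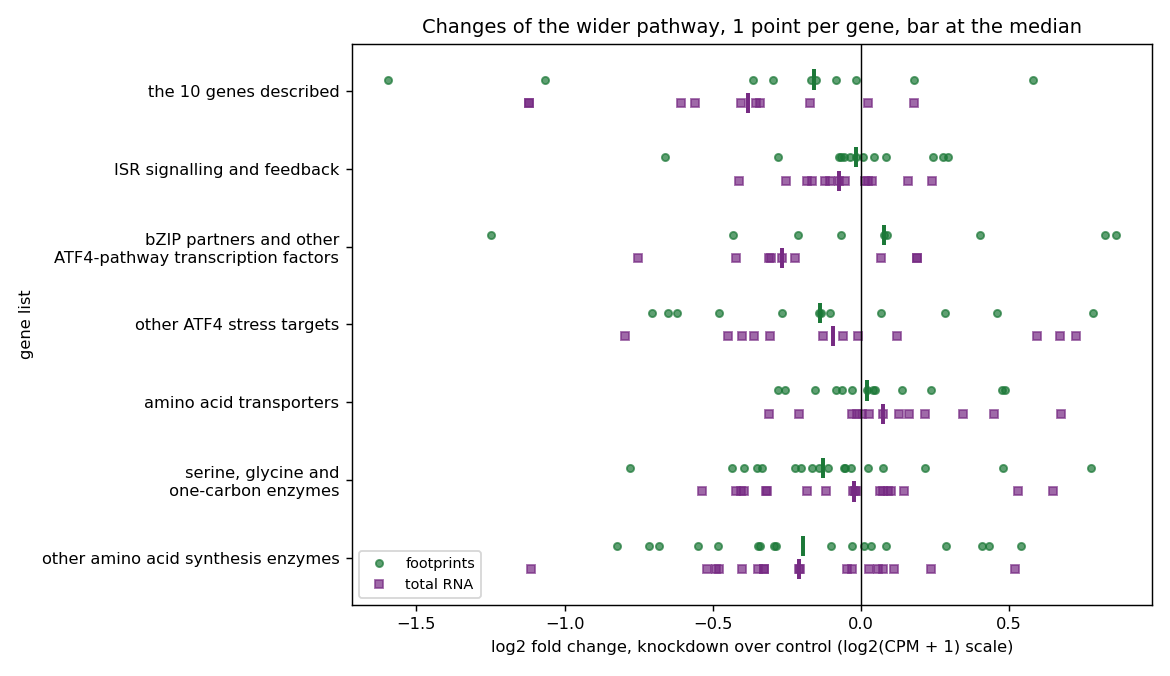
Log2 fold change, knockdown over control, on the log2(CPM + 1) scale for the 10 genes and the 6 lists of the wider pathway, with 1 point per gene, footprints in green, total RNA in purple and a bar at the median. Medians of the other amino acid synthesis enzymes lie at -0.19 (footprints) and -0.21 (total RNA), beside 0.02 and 0.08 for the amino acid transporters.

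Likeness of pattern was measured as Pearson's r over the 8 libraries, with log2(CPM + 1) centred within each assay, among genes with at least 10 CPM in both tables. These points share libraries and groups, so the values are a description. Asns was most like Hebp1 (r = 0.995), Lgmn (0.994), Hsf2bp (0.993), Impa2 (0.992) and Ivns1abp (0.992). Ddit3 and Aldh1l2 fell short of 10 CPM, so no r was computed for them. Among the other members Asns was most like Mthfd2 (0.913), Shmt2 (0.895) and Psat1 (0.885), and Asns had 0.384 with Atf4 and 0.086 with Trib3. Atf4 was most like Eif1a (0.984), Mob4 (0.982), Oxnad1 (0.974), Rps20 (0.972) and Mrgbp (0.967), and among the members Trib3 (0.864). Atf4 and Trib3 were each highest in control 2 of both assays, and the part of these libraries in their likeness was not tested.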

How the data were processed

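Footprints and total RNA of J1 stem cells were sequenced as single-end 50 bp reads from TruSeq Ribo Profile libraries with Ribo-Zero Gold depletion, per the labels' protocols. The protocol names a pair of shRNAs against eIF4A2 and a pair of control shRNAs, with no link from shRNA to library. Replicates are called biological there. The authors deposited 1 table per assay whose library columns hold a signal, the reads of each gene divided by an effective library size (CPM scale). The deposited tables also give the authors' own comparison, namely log2 values (fold change and mean level), a likelihood ratio score, and p-values with an FDR. Tools in the submitters' processing notes are HTSeq 0.11.2, Bowtie 1.2.3, edgeR 3.26.8 and TopHat2 2.1.1, without their roles, and the build is mm9. Gene coordinates of mm9 were not used, and promoter positions are those of GRCm38.p6.

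Dividing a column by its lowest nonzero value gave whole reads for 100% of genes (tolerance 0.01 read). For footprint control 2 that step lies too near 0.1 to be told from rounding, so no count test uses that column. limma 3.58.1 (R 4.3.3) was run with a trend on log2(value + 1), after edgeR 4.0.16's filterByExpr (minimum count 10, minimum total 15), within each assay (2 residual degrees of freedom) and as an interaction over all 8 libraries (4). The fits were also run on simulated counts with the same dispersion in all genes and libraries. That setting does not test them at the unequal spread of the replicate pairs here. Named genes were the 10 members, the targeted gene, from each list the 4 smallest p in either assay, and the 5 genes most like Atf4 and like Asns. A gene of the one-carbon list that this rule takes is not reported here. The members and lists were chosen with earlier results of these data known. Alternatives were a pseudocount of 0.5, no filter, other scaling, a replicate block, 1 fit of all libraries, leaving out libraries, and edgeR and DESeq2 1.42.0 on recovered reads.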

Additional observations from a re-analysis of the deposited data

How the results depend on the processing

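limma called 0 genes in footprints, total RNA and translational efficiency, with 1636, 2002 and 192 genes at an unadjusted p below 0.05, and another pseudocount, no filter and median-of-ratios scaling left these counts at 0. In footprints 89 genes were called with all 8 libraries in 1 fit, 21 with the replicate block, 3 with edgeR's quasi-likelihood test (run without control 2), and 1 to 36 without 1 library. Leaving a library out of the fit of all 8, which was added after seeing the data, gave footprint counts of 0 without knockdown 1 or control 2, 67 without knockdown 2, 2 without control 1, 27 without either total RNA knockdown library, 195 without total RNA control 1 and 205 without total RNA control 2. In total RNA the counts were 97 with all 8 libraries, 636 with the replicate block, 824 with edgeR's likelihood ratio test, 272 with DESeq2, 0 with edgeR's quasi-likelihood test and 34 to 6191 without 1 library, with 3411 without control 2 and 6191 without control 1. In the fit of all 8 they were 121 and 110 without footprint knockdown 1 and 2, 478 without total RNA control 1 and 0 without any other library. For translational efficiency they were 0 with the replicate block and 0 to 1 without 1 library. In total RNA the likelihood ratio test called Aldh1l2, Psat1, Asns and Atf5, DESeq2 called Asns, and the replicate block called Asns and Aldh1l2. The labels do not say that replicate numbers pair libraries. Deviations of same-numbered knockdown and control libraries had a correlation across genes of 0.231 for footprints and -0.275 for total RNA. A block with crossed numbers, added after seeing the data, called 924 genes in total RNA.

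The sign changed in 13 of 180 alternative values of the 10 genes in footprints, 4 of 210 in total RNA and 11 of 120 in translational efficiency. Trib3 had 0.011 in footprints with median-of-ratios scaling. Without 1 library, footprint values ran from -0.44 to 0.27 for Atf4 (0.28 with edgeR), -0.30 to 0.66 for Atf5, -0.38 to 0.044 for Phgdh and -0.12 to 0.089 for Trib3 (0.080 without knockdown 2, and 0.099 with edgeR). In total RNA they ran from -0.49 to 0.14 for Atf4 and -0.088 to 0.14 for Trib3. For translational efficiency they ran from -0.27 to 0.45 for Atf4, -0.20 to 0.31 for Asns, -0.024 to 0.40 for Phgdh, -0.046 to 0.13 for Shmt2 and -0.15 to 0.073 for Trib3. The cause of these changes was not tested. Depth limits Aldh1l2, with 5 footprint reads in 1 knockdown library, and the number of libraries limits all 10 genes.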
